A study of Mus musculus with 5 samples.

Results

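The Zic and Glis zinc finger factors comprised 7 genes here, Zic1, Zic2, Zic4, Zic5, Glis1, Glis2 and Glis3, taken by symbol from the 23284 genes listed for each sample. All 7 passed the filter on low counts that left 12703 genes for testing. Glis3 was chosen by its CPM in these samples, for a strong drop in EpoR-null neural tubes, and its difference between genotypes is given as a description, without a test. The other 6 genes were taken by family name.

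RNA-seq had been performed on neural tubes of 5 mouse samples, labelled as embryonic day 8.5. The 2 EpoR-null samples (EpoR -/-) lacked the erythropoietin receptor, and they were compared with 3 controls, of which 2 were wild type (EpoR +/+) and 1 was heterozygous (EpoR +/-). The comparison addresses which transcripts differ in the embryonic neural tube when the receptor is missing. The study bred EpoR+/- mice and named no tissue-restricted driver, so the allele was not limited to the neural tube. Its methods give a slightly later stage than the labels do. The labels do not say how many embryos went into a sample, and the p-values therefore measure only the spread between these 5 samples.

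ZIC proteins are zinc finger transcription factors, relatives of the GLI proteins that carry Hedgehog signals. Zic genes are known for their expression in the dorsal neural tube, and loss of Zic2 or Zic5 in mice disturbs neural tube closure. GLIS proteins share the GLI-like zinc fingers: loss of Glis3 causes neonatal diabetes and hypothyroidism, and loss of Glis2 causes the kidney disease nephronophthisis. Zic1 and Zic4 are neighbours on chromosome 9, and Zic2 and Zic5 are neighbours on chromosome 14.

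Promoter sequences were found for 5 of the 7 genes in RefSeq (build GRCm38.p6), as windows of 300 bases that span the start of the gene. Those of Glis3 and Zic5 are shown because both EpoR-null samples had lower values than every control for these genes, and those of Zic1 and Zic4 because the genotypes are compared below for this neighbouring pair. They are written 5′ to 3′ on the strand of the gene, with CpG dinucleotides in capitals.
Glis3: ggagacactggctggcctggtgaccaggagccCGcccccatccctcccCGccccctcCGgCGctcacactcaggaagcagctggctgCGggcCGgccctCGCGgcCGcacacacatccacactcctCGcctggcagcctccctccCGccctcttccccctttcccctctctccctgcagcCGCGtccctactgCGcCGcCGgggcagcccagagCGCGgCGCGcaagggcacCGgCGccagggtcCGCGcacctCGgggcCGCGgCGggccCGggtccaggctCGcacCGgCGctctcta
Zic5: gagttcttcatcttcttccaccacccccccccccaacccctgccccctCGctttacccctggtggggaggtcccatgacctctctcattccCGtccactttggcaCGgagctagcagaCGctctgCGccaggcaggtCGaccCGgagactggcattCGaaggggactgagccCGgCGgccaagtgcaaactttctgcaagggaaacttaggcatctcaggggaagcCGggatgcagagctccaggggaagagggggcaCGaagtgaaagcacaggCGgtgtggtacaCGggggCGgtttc
Zic1: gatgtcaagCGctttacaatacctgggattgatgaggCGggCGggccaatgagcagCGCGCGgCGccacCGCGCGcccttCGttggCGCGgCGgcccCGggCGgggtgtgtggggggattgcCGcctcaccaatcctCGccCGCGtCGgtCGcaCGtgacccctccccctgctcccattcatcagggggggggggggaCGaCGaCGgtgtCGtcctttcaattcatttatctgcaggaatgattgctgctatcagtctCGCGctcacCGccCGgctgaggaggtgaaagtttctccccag
Zic4: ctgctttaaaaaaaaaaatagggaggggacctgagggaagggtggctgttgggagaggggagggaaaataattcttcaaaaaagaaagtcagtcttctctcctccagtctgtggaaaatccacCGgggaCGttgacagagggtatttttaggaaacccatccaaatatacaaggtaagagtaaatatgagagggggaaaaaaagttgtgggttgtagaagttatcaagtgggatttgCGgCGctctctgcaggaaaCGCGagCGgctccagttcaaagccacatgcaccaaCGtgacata
The Glis3 window lies at chr19:28680028-28680327 on the minus strand and held 32 CpGs, with a GC content of 76.3%. The Zic5 window, at chr14:122465609-122465908 on the minus strand, held 15 CpGs at 62.7% GC. On the minus strand of chromosome 9, the Zic1 window at chr9:91365719-91366018 held 31 CpGs at 65.3% GC. Its neighbour Zic4, at chr9:91368722-91369021 on the plus strand, held 8 CpGs at 46% GC, close to the median of 7 CpGs over all 32851 promoter windows. Glis3 and Zic1 thus had the most CpG-rich of the printed windows. Each window was searched on both strands for TTCNNNGAA, the letters bound by STAT factors downstream of the erythropoietin receptor, for GACCACCC, bound by GLI and ZIC proteins, and for TGGGGGGT, bound by GLIS proteins. None of the 5 windows held any of these letters, which occurred in 8.3%, 0.807% and 1.53% of all promoter windows, respectively. The absence says only that these letters are not in these 300 bases.

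The depth was 19316126 to 41169218 reads on genes per sample, and 3 reads, the limit that a count of 0 allows, corresponded to 0.0729 to 0.155 CPM, the read count of a gene scaled to the depth of its sample. This floor covers counting error only. Epor itself was measured at 2.355 and 1.62 CPM in wild type, 0.476 in the heterozygote, with 0.354 and 0.669 CPM in EpoR-null neural tubes. The heterozygote thus lay inside the EpoR-null range, at only 7 to 19 reads in these 3 samples, and Epor separated only the wild type samples from the rest. All 5 neural tube markers were present, and their summed level was 1270 to 1453 CPM in controls against 1314 and 1080 CPM in EpoR-null samples. The lists of other cell types differed more between samples. The heterozygote had the lowest summed level of neural crest, somite, surface ectoderm, endothelial and erythroid markers. For primitive erythroid genes it had 43 CPM, against 592 to 1674 CPM in the other 4 samples. None of the markers tested in any list passed both thresholds used below.

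In controls, Glis2, Zic1 and Zic2 were abundant, Zic4 and Zic5 were intermediate, and Glis3 and Glis1 were barely expressed. Per kilobase of transcript, Glis2 had the highest level, 33.5 ± 0.229 CPM per kb (SD, n = 3 controls), above 83.7% of tested genes with a known length. Zic1 had 24.1 ± 0.974 and Zic2 23.3 ± 1.07 CPM per kb (SD, n = 3), and these neighbours in the order overlapped, with control ranges of 23.5 to 25.2 and 22.2 to 24.3. Zic4 followed at 3.33 ± 0.586 and Zic5 at 1.88 ± 0.224 CPM per kb, with ranges that did not overlap. Glis3, at 0.502 ± 0.0627 CPM per kb, overlapped with Glis1, at 0.407 ± 0.0841, and only 6.25% and 4.51% of genes, respectively, had lower levels. Per kilobase of coding sequence alone, Zic1 (101 CPM per kb) stood above Glis2 (77.6), and the other 5 genes kept their places.

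**Figure D1:**
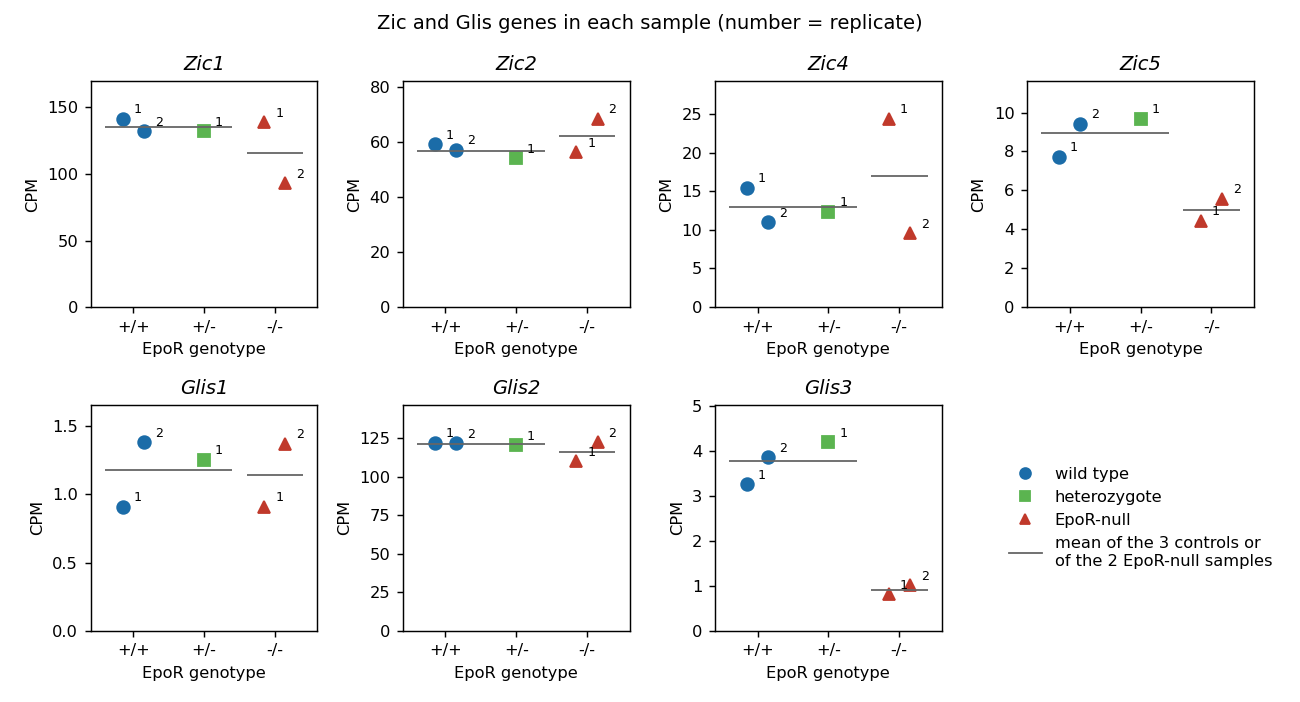
CPM of each of the 7 genes in each sample, with 1 panel per gene, a linear axis from 0, points for samples, replicate numbers beside the points and horizontal lines for group means. Glis3 (0.808 and 1.02 CPM against 3.26 to 4.19) and Zic5 (4.45 and 5.56 against 7.73 to 9.68) are the panels in which both EpoR-null samples sit below every control.

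Glis3, a factor best known from pancreatic beta cells and thyroid, had the lowest EpoR-null levels relative to controls of the set, by the choice that brought it in. It was measured at 3.26 and 3.86 CPM in wild type (79 and 162 reads), 4.19 CPM in the heterozygote (97 reads), and 0.808 and 1.02 CPM in the EpoR-null samples (16 and 29 reads). Both EpoR-null samples lay below all 3 controls, and the heterozygote was the highest sample, at 118% of the wild type mean. The mean was 3.77 ± 0.471 CPM in controls (SD, n = 3) and 0.915 ± 0.151 in EpoR-null samples (SD, n = 2), or 24.3% of the control mean. The fitted log2 fold change was -2.03 (SE 0.41). Glis3 was chosen for this drop, so its rank among the tested genes is no result. In bulk tissue, fewer cells of a type and less RNA per cell cannot be told apart.

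The Glis3 transcript is long, at 7514 nt, and long transcripts were lower in EpoR-null samples across the transcriptome. The median log2 fold change went from 0.48 in transcripts under 1 kb to -0.50 in those over 8 kb. In the class of Glis3, 6 to 8 kb, it was -0.35 over 1172 genes, 14.6% of which passed both thresholds as lower. With transcript length and GC content fitted as offsets, the log2 fold change of Glis3 was -1.65. The part of this length trend in the Glis3 difference was not tested further.

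**Figure D2:**
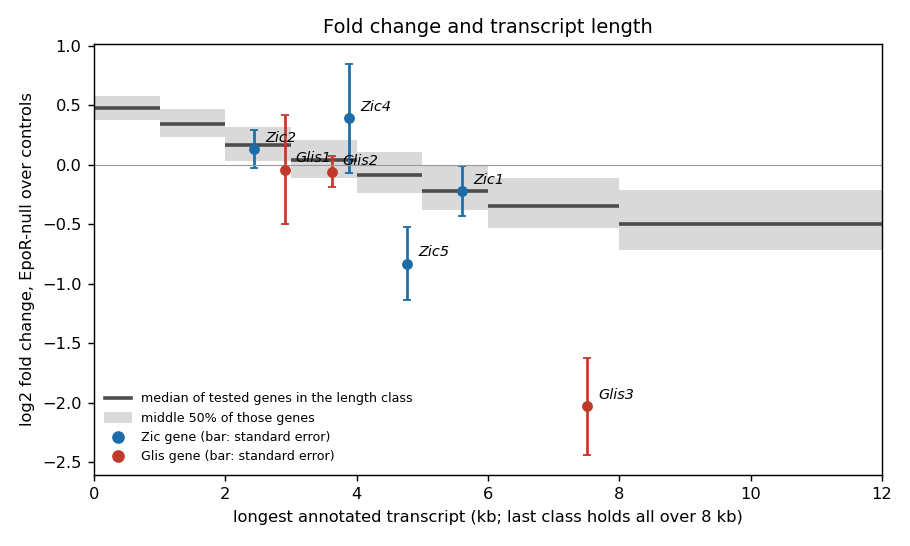
Log2 fold change of EpoR-null samples against controls (vertical axis) by length of the longest annotated transcript in kb (horizontal axis), with the median of all tested genes in each length class as a line, their middle 50% as a grey band and the 7 genes as labelled points with bars of 1 standard error. The median falls from 0.48 under 1 kb to -0.50 over 8 kb, and Glis3, which was chosen for its drop, stands at -2.03.

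Of the other 6 genes, 0 passed both thresholds, p under 0.001 and a Benjamini-Hochberg false discovery rate (FDR) under 0.05 in the exact test of edgeR, and 1, Zic5, had an unadjusted p under 0.05. None of the 6 passed in the quasi-likelihood test of edgeR (0% of all tested genes called) or in DESeq2 (8.09%) either. Glis1 had no adjusted p-value in DESeq2 and so could not pass there. Over all tested genes, 4.77% passed both thresholds, 3.84% as lower and 0.929% as higher, and 19.8% had an unadjusted p under 0.05. Of these 6 genes, 1, Zic5, had both EpoR-null samples below every control, against 22.1% of tested genes. Glis3 did so by the choice that brought it in and is not counted. None of the 6 had both above, against 21.2%. The remaining 5 genes overlapped between the groups, as did 56.7% of tested genes.

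Zic5, whose loss in mice affects neural tube closure and neural crest, had the most negative fold change of the 4 Zic genes. It had 7.73 and 9.43 CPM in wild type (187 and 396 reads), 9.68 CPM in the heterozygote (224 reads), and 4.45 and 5.56 CPM in the EpoR-null samples (88 and 158 reads). The 2 groups did not overlap, and the EpoR-null mean, 5 ± 0.791 CPM (SD, n = 2), was 55.9% of the control mean of 8.95 ± 1.07 CPM (SD, n = 3). The log2 fold change of -0.83 (SE 0.31, 95% interval -1.45 to -0.22) did not pass the thresholds (p = 0.0101, FDR = 0.0975, exact test of edgeR). Its length class, 4 to 5 kb, had a median log2 fold change of -0.09.

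Zic2, its neighbour and the gene of the family most closely tied to forebrain and neural tube defects, did not share this pattern. It had 59.4 and 57.3 CPM in wild type, 54.2 CPM in the heterozygote, and 56.3 and 68.6 CPM in the EpoR-null samples, so that 1 EpoR-null sample lay among the controls and the other above them. The log2 fold change was 0.13 (SE 0.16, 95% interval -0.19 to 0.45), with an FDR of 0.697 in the exact test of edgeR. Zic2 reads per Zic5 read were 7.68 and 6.07 in wild type, 5.59 in the heterozygote, but 12.7 and 12.3 in EpoR-null neural tubes. The ratio was thus higher in both EpoR-null samples than in every control, with the lower Zic5 values above as its divisor. The length classes of Zic2 (2 to 3 kb) and Zic5 had median log2 fold changes of 0.17 and -0.09. The part of the length trend in this ratio was not tested.

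Zic1, which acts in the dorsal neural tube, somites and cerebellum, was at 142 and 132 CPM in wild type, 132 CPM in the heterozygote, and 139 and 92.9 CPM in the EpoR-null samples. EpoR-null replicate 1 lay among the controls, and replicate 2 lay below them all. The length class of Zic1, 5 to 6 kb, had a median log2 fold change of -0.22, and with length and GC offsets Zic1 stood at 0.01. Without these offsets, the log2 fold change of Zic1 was -0.22 (SE 0.21, 95% interval -0.63 to 0.18), with an FDR of 0.603 in the exact test of edgeR. Without EpoR-null replicate 1 it was -0.54 and passed both thresholds, as did 18.3% of genes in that comparison (FDR = 0.000236 in the exact test of edgeR), and without replicate 2 it was 0.04. The 16 alternatives gave FDRs of 0.000236 to 0.998.

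Zic4, deleted together with Zic1 in a human cerebellar malformation, was the gene on which the EpoR-null samples differed most. It had 15.4 and 11 CPM in wild type, 12.4 CPM in the heterozygote, and 24.4 and 9.54 CPM in the EpoR-null samples. One EpoR-null sample lay above every control and the other below every control. The log2 fold change was 0.39 (SE 0.46, 95% interval -0.50 to 1.28), with an FDR of 0.678 in the exact test of edgeR. It was -0.44 without EpoR-null replicate 1 and 0.92 without replicate 2. The EpoR-null replicates differed by 1.35 on the log2 scale, and 6.05% of tested genes differed at least as much, against a median of 0.33 over all genes. Zic1 reads per Zic4 read were 9.16 and 12 in wild type, 10.7 in the heterozygote, 5.69 in EpoR-null replicate 1 and 9.73 in replicate 2. Paraxial mesoderm and somite markers stood at 69.9 and 25.6 CPM in the same EpoR-null samples, against 8 to 36.3 CPM in controls. Neural crest markers stood at 87.7 and 50.5 CPM, against 22 to 62.1 CPM. Both lists were thus highest in the sample in which Zic4 was highest. Primitive erythroid markers were highest there too, at 1674 CPM, whereas endothelial and surface ectoderm markers were not. The heterozygote had the lowest sums of both lists, at 8 and 22 CPM, with Zic4 between its 2 wild type values. The part of these cell types in the Zic4 values was not tested. In GENCODE M21, an exon of a Zic4 transcript overlaps a Zic1 exon on the opposite strand. Whether reads were counted by strand is not given in the sources used here, so reads shared by the 2 genes are uncertain.

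**Figure D3:**
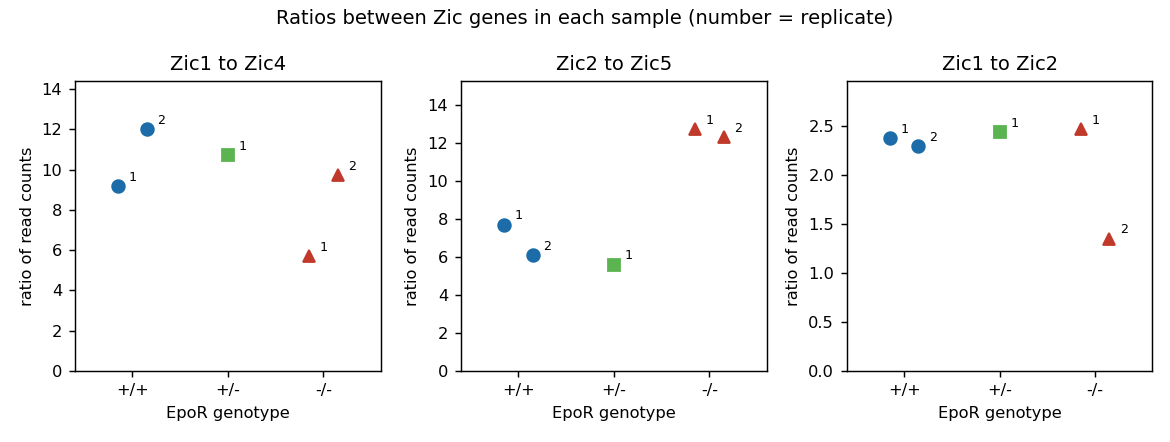
Ratio of reads of Zic1 to Zic4, Zic2 to Zic5 and Zic1 to Zic2 in each of the 5 samples, by EpoR genotype, with points for samples, replicate numbers beside them and linear axes from 0. The ratio of Zic2 to Zic5 is 12.7 and 12.3 in EpoR-null samples against 5.59 to 7.68 in controls, whereas EpoR-null replicate 1 stands alone in the ratio of Zic1 to Zic4 (5.69 against 9.16 to 12) and replicate 2 in that of Zic1 to Zic2 (1.35 against 2.3 to 2.47).

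Glis2, the most abundant Glis gene, stayed within a narrow range, at 122 and 121 CPM in wild type, 120 CPM in the heterozygote, and 110 and 122 CPM in the EpoR-null samples. EpoR-null replicate 1 lay below the controls and replicate 2 at their upper edge. Its log2 fold change was -0.06 (SE 0.13, 95% interval -0.32 to 0.20), with an FDR of 0.848 in the exact test of edgeR. Glis1, a factor used to promote reprogramming to pluripotency, had 0.909 and 1.38 CPM in wild type (22 and 58 reads), 1.25 CPM in the heterozygote (29 reads), and 0.909 and 1.37 CPM in the EpoR-null samples (18 and 39 reads). Its groups overlapped, and at this depth the log2 fold change of -0.04 carried an SE of 0.46, wider than that of Glis2. Over the 7 genes, the heterozygote lay between 92.9% and 118% of the wild type mean. As 1 sample, it could not be tested against wild type.

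**Figure D4:**
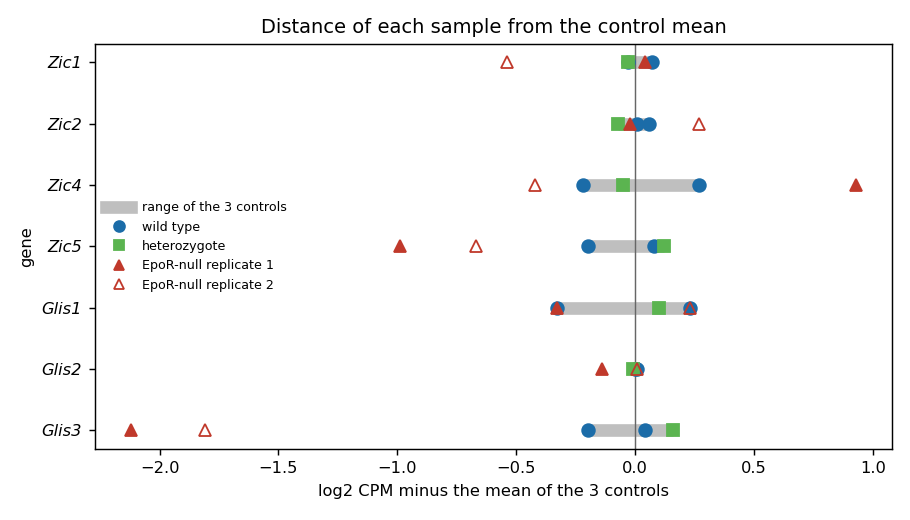
Log2 CPM of each gene in each sample minus its mean over the 3 controls (horizontal axis, 0 is the control mean), with 1 line per gene, points for samples and a grey bar for the range of the controls. Glis3 stands at -2.12 and -1.81 and Zic5 at -0.99 and -0.67 in the EpoR-null samples, and for Zic4 the EpoR-null samples lie on opposite sides of 0, at 0.93 and -0.42.

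The profiles of the 5 samples, as log2 values relative to the control mean, were compared by their root mean square difference. Among the 7 genes, Zic2 lay nearest to Glis2, at 0.13, and Glis1 and Zic1 were also nearest to Glis2, at 0.23 and 0.26. Zic4 and Zic5 were nearest to Zic1, at 0.42 and 0.49. The gene nearest to Glis3 in the set was Zic5 at 0.72, a distance that holds the low EpoR-null values for which Glis3 was chosen. Outside the set, the tested gene nearest to Glis3 was Trim71 at 0.15, which encodes an RNA-binding ubiquitin ligase of early development. Trim71 had 48 and 50 CPM in wild type, 51.1 CPM in the heterozygote, and 13.7 and 14.8 CPM in the EpoR-null samples. Ptch1, the receptor for Hedgehog ligands and itself a target of the pathway, followed at 0.22. It had 143 and 175 CPM in wild type, 166 CPM in the heterozygote, and 48.2 and 55.6 CPM in the EpoR-null samples. Odz4, a teneurin, followed at 0.23, an uncharacterized RIKEN cDNA gene at 0.24 and the homeobox gene Hdx at 0.25. All 5 were selected for this likeness and so were low in both EpoR-null samples by construction. The transcripts of Trim71, Ptch1, Odz4 and Hdx were long, at 9332, 10383, 13172 and 9534 nt. Their length class, over 8 kb, had a median log2 fold change of -0.50. The RIKEN gene had no known length and only 5 and 6 reads in the EpoR-null samples. The part of the length trend in this likeness was not tested. With the mean absolute difference as the measure, 2 of the 5, Trim71 and Ptch1, remained among the nearest 5.

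Of 15 relatives and binding partners of GLI, ZIC and GLIS proteins, all tested, 2 were lower past both thresholds and 0 were higher, against 3.84% and 0.929% of all tested genes. A log2 fold change below 0 was found for 12 of the 15, against 5569 of the 12703 tested genes. The median over the list was -0.20, against 0.06 over all tested genes. Both EpoR-null samples lay below every control for 7 of the 15 and above for 1, against 22.1% and 21.2% of all tested genes. These values hold no correction for the length trend described for Glis3. In the likelihood-ratio test, 6 of the 15 had an unadjusted p under 0.05 (2550 of 12703 tested genes). With length and GC offsets 1 did (1027 of 12583 genes). The part of the length trend in this list was not tested further. Gli3, the Hedgehog-regulated factor that acts mainly as a repressor in the dorsal neural tube, had 173 and 167 CPM in wild type, 178 CPM in the heterozygote, and 117 and 110 CPM in the EpoR-null samples. Its groups did not overlap, and the log2 fold change was -0.61 (SE 0.13, FDR = 0.000514, exact test of edgeR). Sufu, which holds GLI proteins inactive, had 54.1 and 61.6 CPM in wild type, 53 CPM in the heterozygote, and 33.4 and 32.6 CPM in the EpoR-null samples, with a log2 fold change of -0.77 (SE 0.16, FDR = 0.000328, exact test of edgeR). Again both EpoR-null samples lay below every control. Neither call held in the quasi-likelihood test of edgeR, in which 0 of the 15 and 0 of all 12703 tested genes passed both thresholds. In that test 7 of the 15 had an unadjusted p under 0.05, against 3052 of 12703. Nor did either call hold without wild type replicate 1 in the exact test, where 0.913% of all genes passed. There 3 of the 15 had an unadjusted p under 0.05, against 1171 of 12598. The number of the 15 past both thresholds varied with the setting, and DESeq2 called 8.09% of all tested genes. The count was 5 without EpoR-null replicate 1, 4 without replicate 2 (7.76% of all genes), 2 in DESeq2 and 1 with length and GC offsets in the likelihood-ratio test (1.47%).

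Gli2, the main Hedgehog activator, was at 73.3 to 84.4 CPM in controls and at 48.2 and 66.1 CPM in EpoR-null samples, with an FDR of 0.125 in the exact test of edgeR. Gli1, a direct Hedgehog target, was at 81.8 to 131 CPM in controls, and the EpoR-null samples diverged, at 32.5 and 117 CPM.

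Of 14 genes of the dorsal neural tube and roof plate, where Zic genes are normally expressed, 1 was lower past both thresholds and 0 were higher, against 3.84% and 0.929% of all tested genes. A log2 fold change below 0 was found for 8 of the 14, against 5569 of the 12703 tested genes. The median was -0.07, against 0.06 over all tested genes. Both EpoR-null samples lay below every control for 2 of the 14, and no gene of the list had both above, against 22.1% and 21.2% of all tested genes. The gene that passed was Gdf7, a signal of the roof plate. It had 1.53 and 2.69 CPM in wild type, 2.12 CPM in the heterozygote, and 0.505 and 0.387 CPM in the EpoR-null samples. Gdf7 had 37 and 113 reads in wild type, 49 in the heterozygote and only 10 and 11 in the EpoR-null samples. Its groups did not overlap, with a log2 fold change of -2.26 (SE 0.52, FDR = 0.00137, exact test of edgeR). In the quasi-likelihood test of edgeR 0 of the 14 genes passed, as did 0 of all 12703 tested genes. In that test 2 of the 14 had an unadjusted p under 0.05, against 3052 of 12703. In DESeq2 0 of the 14 passed, against 1028 of 12703, and 1 had an unadjusted p under 0.05, against 3141. Pax3, a marker of the dorsal neural tube, had 82.5 and 60.1 CPM in EpoR-null samples against 65.6 to 86.7 CPM in controls. Other genes of the list differed more between EpoR-null replicates 1 and 2, and in opposite directions. Pax7 had 20.3 and 5.669 CPM, against 14.56 to 20.71 CPM in controls. Wnt3a had 9.647 and 25 CPM, against 18.55 to 23.18 CPM in controls.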

How the data were processed

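Reads had been trimmed with Trimmomatic 0.32, aligned to mm9 with TopHat2 2.1.0 and counted per gene with HTSeq 0.6.1, according to the submitters' processing notes. The deposited files hold raw counts per gene as the authors made them, with no normalization, and the strand setting and annotation of the counting are not given in the sources used here. Counting left 8.115 to 11.03% of uniquely aligned reads outside genes and 1.845 to 2.305% as ambiguous, and these lines were not used.

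Samples were grouped by their genotype labels. The 12703 of 23284 genes that exceeded 1 CPM in 2 or more samples were tested between 2 EpoR-null samples and 3 controls with the exact test of edgeR 4.0.16 in R 4.3.3, after TMM scaling, as in the study's methods, and with tagwise dispersions. A gene was called at p under 0.001 and FDR under 0.05, adjusted over all tested genes. CPM values used TMM-scaled library sizes, and log2 CPM profiles a prior count of 2. Alternatives were the quasi-likelihood and likelihood-ratio tests of edgeR, also with length and GC offsets, a replicate block, DESeq2 1.42.0, other size factors, filters and dispersions, and leaving out each sample. The exact, quasi-likelihood and DESeq2 fits were also run on counts simulated with the means and dispersions of these data. The simulation held no length trend and no replicate structure, so it cannot show how either affects the calls.

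Named were the 7 genes, Epor, called genes of the lists, the 5 genes nearest to Glis3 and the nearest member of each gene. Members and lists were chosen with earlier results of these data known, and Gli1, Gli2, Pax3, Pax7 and Wnt3a were named after their values were seen. The values of 1 listed gene are not reported here. Transcript lengths (longest per gene) came from GENCODE M21. A coding length from RefSeq proteins was not run, and GENCODE coding length was used instead. Promoters of Zic2 and Glis2 were not used here.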

Additional observations from a re-analysis of the deposited data

How the results depend on the processing

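The exact test called 606 genes, the quasi-likelihood test 0 (3052 at an unadjusted p under 0.05), DESeq2 1028, dispersions shrunk to a common value 351, the likelihood-ratio test with length and GC offsets 185, the quasi-likelihood test with these offsets 0 (1311 at an unadjusted p under 0.05), and the tests without 1 sample 115 to 2296, lowest without wild type replicate 1 and highest without EpoR-null replicate 1. Glis3 was chosen on these values and is left out of the counts over the set. Of the other 6 genes, 0 passed in the exact test, in the quasi-likelihood test with or without offsets or block, or in DESeq2. The log2 fold change of Zic1 without EpoR-null replicate 1 was -0.54. The relatives and partners gave 2 calls, also 2 in DESeq2 and in the quasi-likelihood test with block, 0 in the quasi-likelihood test without block with or without offsets, 1 in the likelihood-ratio test with offsets and 0 to 5 without 1 sample. The dorsal genes gave 1 call, 0 in the quasi-likelihood test with or without offsets or block and in DESeq2, and 1 to 2 without 1 sample.

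Directions turned for Zic1 (0.04 without EpoR-null replicate 2, 0.01 in both tests with offsets), Zic2 (-0.02 without EpoR-null replicate 2, -0.10 in both tests with offsets), Zic4 (-0.44 without EpoR-null replicate 1), Glis1 (0.09 without wild type replicate 2, 0.20 without EpoR-null replicate 1) and Glis2 (0.01 without EpoR-null replicate 1). The cause was not tested. Zic5 stayed below 0 in all 16 alternatives, from -1.01 to -0.69 with FDRs of 0.0212 to 0.552. Glis3 ran from -2.22 to -1.65, with -1.65 and -1.66 under offsets. It was chosen for its drop in these samples, so its sign is no result of the refits. Without 1 sample the log2 fold changes ran from -0.54 to 0.04 for Zic1, -0.02 to 0.27 for Zic2, -0.44 to 0.92 for Zic4, -1.01 to -0.69 for Zic5, -0.39 to 0.20 for Glis1, -0.14 to 0.01 for Glis2 and -2.22 to -1.88 for Glis3. A lone EpoR-null sample was then assumed to vary like the controls. Coding length moved 2 genes in the order of levels, and 2 of the 5 genes nearest to Glis3 were shared between measures of likeness. At 16 to 29 reads, depth limits the EpoR-null values of Glis3, and at 18 to 39 reads those of Glis1. The same limit holds for Gdf7, at 10 and 11 reads.

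With the labels' replicate numbers as a replicate block, the quasi-likelihood test called 291 genes. The labels do not say that a number marks a shared litter or day. Deviations of same-numbered wild type and EpoR-null samples correlated across 12703 genes (Pearson 0.427, Spearman 0.529), which are not independent replicates. The dispersions shrunk to a common value, the quasi-likelihood test with offsets and the GENCODE coding length were chosen after seeing the data.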
